A study of Homo sapiens with 9 samples.

Results

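Aminoacyl-tRNA synthetases load each tRNA with its amino acid, and their mRNAs were followed here by RNA-seq in 9 libraries labelled as the human lung adenocarcinoma line A549. The members were 38 named rows among the 19257 genes of the deposited tables. They comprised 22 cytosolic genes (19 ending in 1 or encoding the FARSA and FARSB chains, and the scaffold genes AIMP1, AIMP2 and EEF1E1) and 16 mitochondrial genes ending in 2. These classes follow the gene names, and where each product works was not examined. GARS1, KARS1 and QARS1 are in the cytosolic class, and the mitochondrial class has no gene for glycine, lysine or glutamine. All 38 passed the low-count filter that kept 12574 genes for testing. The groups were OGT_KO, cells given a Lenti-CRISPR-V2 plasmid aimed at OGT, the enzyme that attaches O-GlcNAc to proteins, TR11B_KO, cells given one aimed at TR11B, taken here as TNFRSF11B (osteoprotegerin), and NC, cells given the empty plasmid and labelled WT by genotype. Each group had 3 libraries. The medium was DMEM with fetal bovine serum and penicillin/streptomycin throughout. Each knockout's table columns carried a single name with a replicate number, and guides and clones are not given in the sources used here, so what a guide or a clone did and what the knockout did cannot be told apart. The sample titles speak of biological replicates without naming separate cultures, so the spread behind each p-value is that of these samples and may be technical.

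Synthetases fall into structural classes I and II, and most amino acids have one nuclear gene for the cytosol and another for the mitochondrion. In the cytosol several class I enzymes, the lysine enzyme KARS1 and the bifunctional glutamate-proline enzyme EPRS1 assemble with AIMP1, AIMP2 and EEF1E1 into the multi-tRNA synthetase complex. Cells short of an amino acid phosphorylate eIF2alpha through the kinase GCN2 and translate the transcription factor ATF4, which is known to activate many cytosolic synthetase genes through C/EBP-ATF response elements. The mitochondrial enzymes serve the translation of respiratory chain subunits encoded in mitochondrial DNA, and mutations in several of them cause inherited disease.

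Library totals lay between 38327508 and 42245970 counts. TR11B_KO replicate 2 stood apart, with a TMM scaling factor of 0.784 where the others had 0.951 to 1.159, and with 14128 genes detected against 14581 to 14954. OGT had 927, 1255 and 960 counts in OGT_KO, 716, 356 and 484 in TR11B_KO and 1239, 1143 and 967 in NC. OGT RNA was thus not called lower in the libraries labelled OGT_KO (log2 fold change -0.17, edgeR adjusted p 0.607) and fell in TR11B_KO (-0.99, 0.00393). A count over the whole gene does not check for a small edit. TNFRSF11B had 1, 0 and 0 counts in OGT_KO, 3, 1 and 0 in TR11B_KO and 13, 15 and 3 in NC, too few to test. Of the 7 epithelial and A549 markers, KRT8, KRT18 and KRT7 were abundant, with at least 116514 counts in every library. CDH1 had no count in any library, EPCAM at most 2, AKR1B10 at most 4 and ALDH1A1 at most 7, and the sum of the 7 was 13290 to 15350 CPM in OGT_KO, 16390 to 20210 in TR11B_KO and 20120 to 22810 in NC. CDKN2A, looked at after its values were seen and known as deleted in A549, had 4173 to 9775 counts, and AKR1C1 and AKR1C2, chosen in the same way and known as high in A549, had at most 6 and 0. Apart from the keratins, the marker values thus went against the label of the line. The markers of other cell types present in the table (3 of 6 for fibroblasts, 2 of 5 for leukocytes and 3 of 4 for endothelium) summed to at most 0.828, 0.242 and 0.491 CPM in any library. KRT7 went against the sum, with 167595 to 201790 counts in OGT_KO, 116514 to 127811 in TR11B_KO and 131675 to 141620 in NC. The part that these markers may have in the results was not tested.

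Of the 38 genes, 33 had at least 1 promoter window in RefSeq (GRCh38.p14), 45 windows in all, each running from 250 bases before to 50 bases after the start. The ATF4-type element TGATGNAA, searched on both strands, stood in a window of 8 of these 33 genes (24.2%), against 4.46% of all 27305 genes with a window. Per window the shares were 8 of 45 (17.8%) and 3.62% of all 35116 windows of this length. Its form TGATGCAA, which overlaps it by construction, stood in 6 of the 33 genes (18.2%) against 1.08% of all genes, and in 13.3% of member windows against 0.866% of all windows. The 8 matches are shown because 7 belong to cytosolic genes, a class with many known ATF4 targets, while YARS2 was the one mitochondrial gene among them. Each line reads 5' to 3' on the gene's strand, with the match in capitals on whichever strand it was found.
TARS1: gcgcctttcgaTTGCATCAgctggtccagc
GARS1: ttacgcggcgaTTTCATCAtgctccgagcc
IARS1: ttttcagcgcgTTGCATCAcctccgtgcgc
CARS1: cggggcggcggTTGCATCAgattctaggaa
MARS1: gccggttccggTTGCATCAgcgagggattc
AARS1: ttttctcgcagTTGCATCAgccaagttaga
NARS1: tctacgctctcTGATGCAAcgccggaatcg
YARS2: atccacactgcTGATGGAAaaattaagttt
The stretches lay at chr5:33440956-33440985 (+) for TARS1, chr7:30594834-30594863 (+) for GARS1, chr9:92293692-92293721 (-) for IARS1 and chr11:3057407-3057436 (-) for CARS1. Those of the others lay at chr12:57488053-57488082 (+) for MARS1, chr16:70289675-70289704 (-) for AARS1, chr18:57621804-57621833 (-) for NARS1 and chr12:32756076-32756105 (-) for YARS2. In TARS1, IARS1, CARS1 and MARS1 the reverse complement TTGCATCA fell within 13 bases of the annotated start, whereas in AARS1 and YARS2 the match lay 187 and 197 bases upstream. A match describes these letters and does not show a bound site.

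HARS1 and HARS2, the cytosolic and mitochondrial histidine enzymes, start back to back, and the 84 bases between their starts (chr5:140691371-140691454, + strand, GRCh38.p14) are shown because both genes share them as upstream sequence.
HARS1-HARS2: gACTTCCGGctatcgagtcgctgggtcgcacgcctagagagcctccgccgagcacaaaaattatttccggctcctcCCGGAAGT
The capitals mark CCGGAAGT, an ETS-type motif, on either strand. This motif stood in a window of 8 of the 33 genes (24.2%) and of 4.95% of all genes, or in 20% of member windows and 4.14% of all windows. CACGTG, an E-box, stood in 5 genes (15.2%, against 8.77% of all genes), or in 13.3% of member windows against 7.26% of all. A further GC-rich motif, not printed here, stood in 7 genes (21.2%, against 6.98% of all genes), or in 20% of member windows against 5.78% of all. Every motif searched thus had a higher share among the members than among all genes. The background held all genes with a window and was not limited to tested genes. Whether any of these shares is particular to the members was not tested.

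Levels per length differed far more between genes than between groups. On the authors' FPKM scale the highest member was VARS1, the cytosolic valine enzyme, with a mean of 428 FPKM in OGT_KO, 341 in TR11B_KO and 375 in NC. FARSA followed at 259, 277 and 328 FPKM in the same order of groups. FARSA encodes the catalytic chain of the cytosolic phenylalanine enzyme, and FARSB, which encodes its partner chain, was at 1.82, 1.38 and 1.5 FPKM. The gene lengths behind these FPKM values were 1811 bases for FARSA and 9202 for FARSB, so part of the gap comes from length. Without division by length, the NC means were 589 CPM for FARSA and 13.7 CPM for FARSB. Within the multi-tRNA synthetase complex, too, the levels were unequal. The methionine enzyme MARS1 averaged 170, 161 and 208 FPKM in OGT_KO, TR11B_KO and NC, EPRS1 8.28, 2.76 and 4.77, and the leucine enzyme LARS1 4.25, 2.25 and 4.41. The scaffold AIMP2 stood at 28.3, 23.4 and 28.7 FPKM, whereas its partners EEF1E1 (0.441, 0.458 and 0.550) and AIMP1 (0.389, 0.243 and 0.347) lay under 1 FPKM.

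The mitochondrial genes lay lower, from VARS2 at 61.3 FPKM in OGT_KO, 65.3 in TR11B_KO and 70.8 in NC to the tryptophan enzyme WARS2 at 0.356, 0.223 and 0.350. Transcript GC content ran from 36.3% to 62.6% over the members, and the level rose with it as a description across genes. Spearman's rho of mean log2(FPKM + 0.1) with GC content was 0.689 over the 38 members and 0.485 over 12166 tested genes. All these values come from the same 9 libraries. Whether library chemistry or the gene lengths used have a part in the unequal levels of subunits of one complex was not tested.

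**Figure D1:**
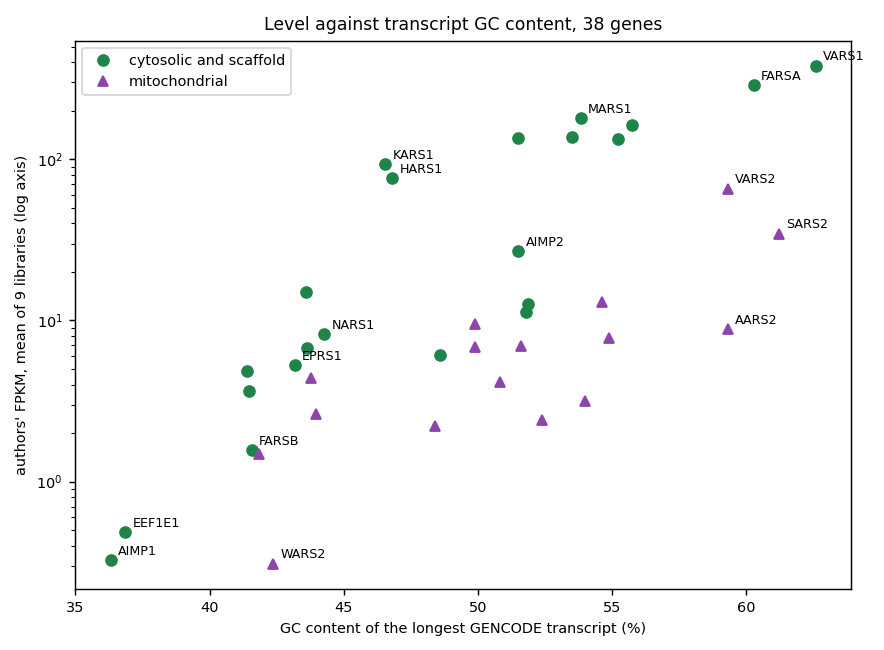
Mean FPKM over the 9 libraries (log axis, authors' values) against the GC content of the longest GENCODE transcript, in percent, for the 38 genes; circles are cytosolic and scaffold genes and triangles mitochondrial genes. AIMP1, EEF1E1 and FARSB lie at the low-GC, low-level end and VARS1 and FARSA at the high end.

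OGT_KO against NC asks how loss of OGT changes expression in this line. In OGT_KO, NARS1, EPRS1 and the mitochondrial isoleucine enzyme IARS2 rose, and HARS1, YARS1, AARS2, SARS2 and TARS2 fell. These 8 calls are 21.1% of the members, beside 18.3% of all tested genes called in this comparison (8.26% higher and 10.1% lower). In this fit the share is thus near the background. The median log2 fold change was -0.13 over the 22 cytosolic genes and -0.44 over the 16 mitochondrial genes, against 0.03 over all tested genes. With library totals in place of TMM factors, the 3 medians were -0.01, -0.33 and 0.15. Fold changes lay below 0 for 14 of 22 cytosolic and 14 of 16 mitochondrial genes. All 3 OGT_KO libraries lay below all 3 NC libraries for 7 cytosolic and 11 mitochondrial genes and above them for 4 and 1, where 25.6% of all genes did so downward, 24.2% upward and 49.8% in either direction. The count of 8 depended on single libraries: it was 4, 1 and 2 without OGT_KO replicate 1, 2 or 3, 2, 2 and 3 without NC replicate 1, 2 or 3, and 20 without TR11B_KO replicate 2. Those 20 held 5 higher and 15 lower genes and were 52.6% of the members, beside 35.4% of all genes called in that fit. The 1 call without OGT_KO replicate 2 was 2.63% of the members, beside 9.12% of all genes. Without OGT_KO replicate 1 or 3 the members had 10.5% and 5.26% called, beside 9.07% and 9.74% of all genes. Without NC replicate 1, 2 or 3 they had 5.26%, 5.26% and 7.89%, beside 8.34%, 9.1% and 11.2%. The share of all genes thus fell in these fits as well. These are bulk libraries, in which fewer cells of a type and less RNA per cell cannot be told apart.

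Among the cytosolic enzymes, NARS1, which charges tRNA with asparagine, had 28.7, 35.8 and 29.9 CPM (counts per 1e+06 of the TMM-scaled library total) in OGT_KO, against 16.3, 17.0 and 17.4 CPM in NC. Every OGT_KO library lay well above every NC library, and the log2 fold change was 0.90 ± 0.21 (SE, n = 3 against 3, edgeR adjusted p 0.00971). Without OGT_KO replicate 2 or NC replicate 1 the adjusted p was 0.0583 and 0.0551. EPRS1 had 31.3, 44.9 and 34.0 CPM in OGT_KO against 23.1, 23.0 and 23.1 CPM in NC, a change of 0.67 ± 0.21 (edgeR adjusted p 0.0363). The groups did not overlap, and OGT_KO replicate 2 was the highest; the call was lost when any one OGT_KO or NC library was left out, with the value at 0.50 and the adjusted p at 0.183 without OGT_KO replicate 2. The arginine enzyme RARS1 and the threonine enzyme TARS1 had values of 0.47 and 0.40 and did not pass the test (edgeR adjusted p 0.154 and 0.324).

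YARS1, the cytosolic tyrosine enzyme, had 336, 343 and 307 CPM in OGT_KO against 534, 566 and 504 CPM in NC. All OGT_KO values were lower, and the change was -0.70 ± 0.17 (edgeR adjusted p 0.0105), with 0.0587 without OGT_KO replicate 3 and 0.0563 without NC replicate 2. HARS1 had 116, 113 and 95.01 CPM in OGT_KO, against 155, 174 and 152 CPM in NC. Its groups were separate as well, with a change of -0.57 ± 0.17 (edgeR adjusted p 0.0293). Leaving out any single OGT_KO or NC library took HARS1 past the threshold, with adjusted p up to 0.133.

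The mitochondrial enzymes that fell were led by SARS2, which charges serine. It had 36.9, 31.7 and 41.8 CPM in OGT_KO and 75.1, 79.8 and 85.1 CPM in NC, so that each OGT_KO library was well below the lowest NC library. The change was -1.12 ± 0.26 (edgeR adjusted p 0.0103; 0.0632 without OGT_KO replicate 2). AARS2, the mitochondrial alanine enzyme, had 29.9, 28.9 and 27.5 CPM in OGT_KO, against 43.6, 45.6 and 40.6 CPM in NC. Its replicates were tight and the groups apart, at -0.59 ± 0.17 (edgeR adjusted p 0.0247), but the adjusted p was 0.0504 to 0.105 when any one OGT_KO or NC library was left out. TARS2, the mitochondrial threonine enzyme, had 32.3, 27.4 and 26.9 CPM in OGT_KO and 42.3, 44.9 and 38.1 CPM in NC. It changed by -0.54 without overlap and was the least secure of the 8, lost without any one OGT_KO or NC library or without TR11B_KO replicate 3 (adjusted p 0.0545 to 0.155).

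IARS2 was the one mitochondrial gene that rose. It had 17.5, 23.4 and 21.5 CPM in OGT_KO against 11.2, 12.8 and 12.5 CPM in NC, with no overlap and a change of 0.77 ± 0.22 (edgeR adjusted p 0.0243). This call was lost without OGT_KO replicate 2 or 3 or any one NC library (adjusted p up to 0.114). IARS2 (chr1:220094132-220148041) lies near EPRS1 (chr1:219968600-220046505), and BPNT1, which stands between them, had a value of -0.57 ± 0.23 that did not pass the test (edgeR adjusted p 0.0943). The leucine enzyme LARS2 had 18.2, 20.5 and 17.5 CPM in OGT_KO and 37.7, 34.8 and 38.1 CPM in NC. Those libraries were separate, but its value of -0.98 did not pass (edgeR adjusted p 0.0626). CARS2 and EARS2, the mitochondrial cysteine and glutamate enzymes, had values of -0.43 and -0.45 (edgeR adjusted p 0.0949 and 0.091).

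The direction of the OGT_KO calls went with base composition. The 3 members that rose had a transcript GC content of 43.2% to 44.3%, the 5 that fell 46.8% to 61.2%, and those not called 36.3% to 62.6%. Across genes, Spearman's rho of the log2 fold change with GC content was -0.401 over the 38 members and -0.234 over 12166 tested genes. With the trend over GC content removed from every library, a setting chosen after seeing the data, all 8 calls were kept and the medians were -0.12 for cytosolic, -0.30 for mitochondrial and 0.01 for all genes.

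**Figure D2:**
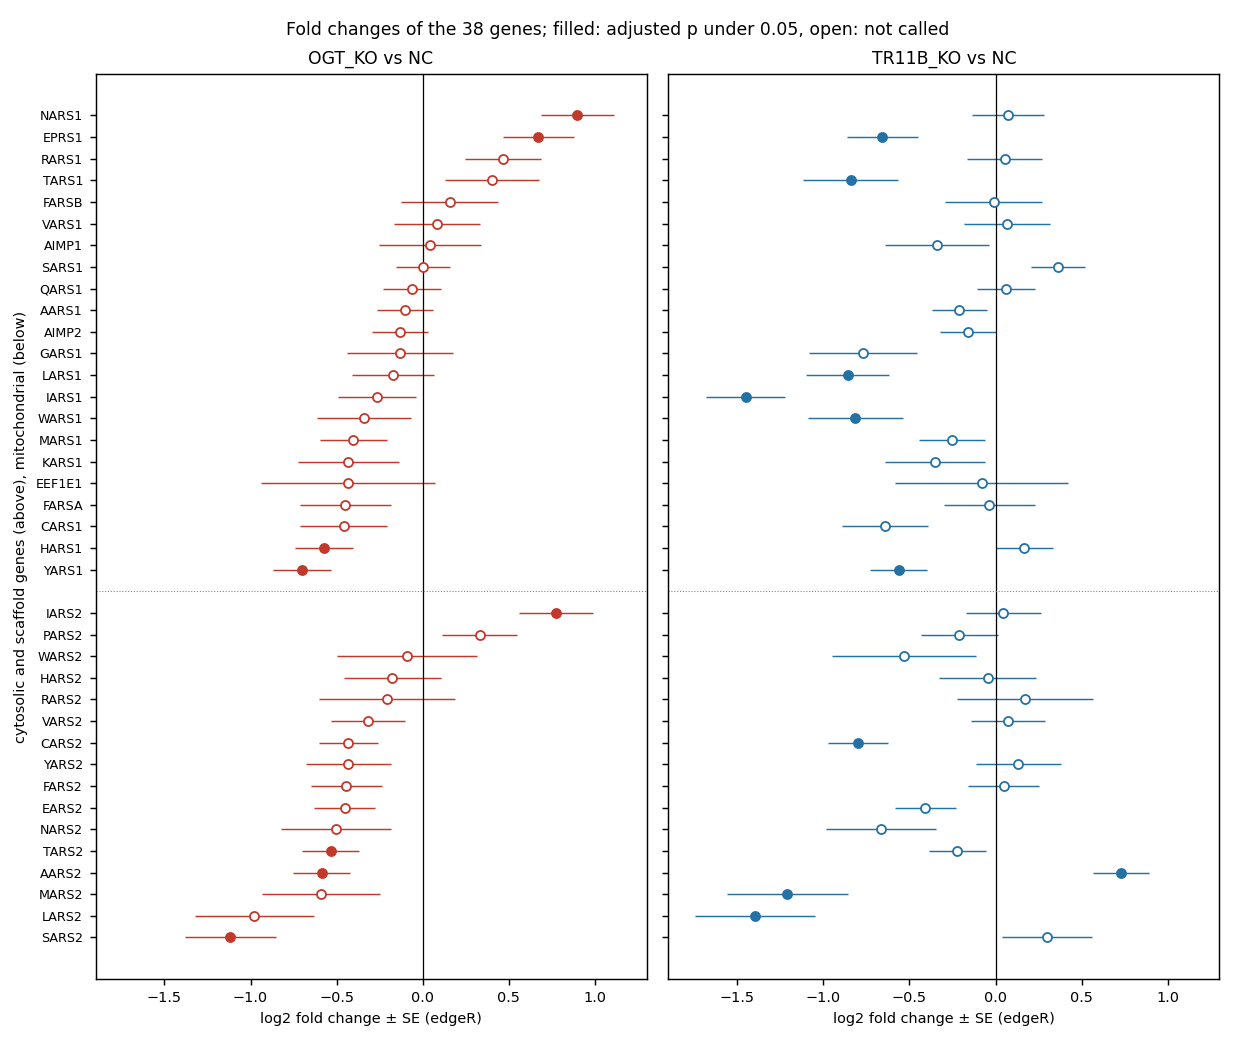
Log2 fold change ± SE (edgeR) of the 38 genes for OGT_KO against NC (left) and TR11B_KO against NC (right), cytosolic and scaffold genes above and mitochondrial genes below, each sorted by the OGT_KO value; filled circles have an adjusted p under 0.05. AARS2 is below 0 on the left and above 0 on the right, and IARS1 and LARS2 have the lowest TR11B_KO values.

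TR11B_KO against NC asks the same of TR11B, with the same 3 NC libraries. In TR11B_KO, AARS2 rose, and 6 cytosolic genes (EPRS1, IARS1, LARS1, TARS1, WARS1 and YARS1) and 3 mitochondrial genes (CARS2, LARS2 and MARS2) fell. The 10 calls are 26.3% of the members, beside 27.6% of all tested genes (13.2% higher and 14.3% lower), again near the background. The median log2 fold change was -0.23 over cytosolic and -0.13 over mitochondrial genes, against -0.01 over all. Library totals alone gave -0.37, -0.24 and -0.15. Values lay below 0 for 16 of 22 cytosolic and 9 of 16 mitochondrial genes. Groups were fully separate and lower for 6 and 5 genes and higher for 1 and 1, where 21.9% of all genes were separate and lower, 19% separate and higher and 40.9% either. The 10 calls were 14 without TR11B_KO replicate 1 (36.8% of the members, beside 34.8% of all genes) and 5 without TR11B_KO replicate 3 (13.2%, beside 21.2%). They were 4 without NC replicate 1 or without NC replicate 2 (10.5%, beside 14.5% and 14.1%). Without TR11B_KO replicate 2, the library that stood apart, 12 genes were called (31.6%, beside 34.2%) and these held all 10. The 9 members that fell had a GC content of 41.5% to 55.7%, and AARS2 had 59.3%. Median gene length was 4467 bases for the 9, 2752 for those not called and 5296 for AARS2. Spearman's rho of the log2 fold change over the 38 members was 0.243 with GC content and -0.299 with length. Over the tested genes it was 0.15 (12166 genes) and -0.313 (12574 genes).

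IARS1, the cytosolic isoleucine enzyme of the multi-tRNA synthetase complex, had the lowest value of all members in this comparison. It had 21.996, 13.0 and 12.3 CPM in TR11B_KO, against 44.8, 40.1 and 44.5 CPM in NC. Every TR11B_KO library was below every NC library, with a log2 fold change of -1.45 ± 0.23 (n = 3 against 3, edgeR adjusted p 0.000741). The call held under all 22 alternative settings, including leaving out TR11B_KO replicate 2, which gave -1.30. LARS1, of the same complex, had 16.3, 8.13 and 10.6 CPM in TR11B_KO against 22.8, 21.4 and 19.3 CPM in NC. It was lower in each library, at -0.86 ± 0.24 (edgeR adjusted p 0.0177), and was lost without TR11B_KO replicate 3, NC replicate 1 or NC replicate 2 (adjusted p up to 0.072). EPRS1 had 18.2, 13.2 and 12.5 CPM in TR11B_KO and 23.1, 23.0 and 23.1 CPM in NC. The groups were separate, at -0.66 ± 0.21 (edgeR adjusted p 0.03), and the call was lost without TR11B_KO replicate 3 (-0.56, 0.109) or any one NC library. Of the 10 members in this complex, 1 rose and none fell in OGT_KO (10%, beside 18.3% of all genes), and none rose and 3 fell in TR11B_KO (30%, beside 27.6%), so neither share stands clear of the background. At an unadjusted p under 0.05, and with DESeq2, both zeros stayed 0.

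TARS1 had 38.2, 14.2 and 20.2 CPM in TR11B_KO against 42.0, 44.5 and 43.7 CPM in NC. TR11B_KO replicate 1 came close to NC, replicate 2 was the lowest, and the change was -0.84 ± 0.28 (edgeR adjusted p 0.0357). The value was -1.27 without TR11B_KO replicate 1 and -0.55 without TR11B_KO replicate 2, both still called; without any one of the other libraries it was not called (adjusted p up to 0.121). YARS1 had 418, 300 and 367 CPM in TR11B_KO and 534, 566 and 504 CPM in NC. These did not overlap, at -0.56 ± 0.17 (edgeR adjusted p 0.0223), but were not called without TR11B_KO replicate 3, NC replicate 1 or NC replicate 2 (up to 0.096).

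WARS1, the tryptophan enzyme known to be induced by interferon-gamma, had 30.3, 16.3 and 28.5 CPM in TR11B_KO against 48.4, 55.8 and 27.8 CPM in NC. NC replicate 3 lay among the TR11B_KO libraries, and the value of -0.81, with an edgeR adjusted p of 0.041, was lost without any one OGT_KO library, TR11B_KO replicate 3, NC replicate 1 or NC replicate 2 (adjusted p up to 0.19) and with the trend over GC content removed (0.0501). The glycine enzyme GARS1 and the cysteine enzyme CARS1 had values of -0.77 and -0.64 and did not pass (edgeR adjusted p 0.0806 and 0.0705).

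Among the mitochondrial enzymes, CARS2 had 27.7, 25.4 and 24.0 CPM in TR11B_KO against 43.1, 45.6 and 45.5 CPM in NC. Both groups were tight and separate, and the change of -0.80 ± 0.17 (edgeR adjusted p 0.00439) was called under all 22 alternatives. LARS2 had 21.4, 5.19 and 15.3 CPM in TR11B_KO, against 37.7, 34.8 and 38.1 CPM in NC. All TR11B_KO values were lower but widely spread, with a change of -1.40 ± 0.35 (edgeR adjusted p 0.00979), and -0.98 without TR11B_KO replicate 2. It was called under all 22 alternatives. MARS2, the methionine enzyme, had 5.59, 1.68 and 4.74 CPM in TR11B_KO and 10.4, 9.09 and 8.48 CPM in NC. It changed by -1.21 without overlap, by -0.82 without TR11B_KO replicate 2, and was not called without NC replicate 1 or NC replicate 2 (adjusted p 0.0709 and 0.0556).

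AARS2 went the other way. It had 61.4, 75.4 and 78.2 CPM in TR11B_KO against 43.6, 45.6 and 40.6 CPM in NC, with all TR11B_KO libraries above NC and a change of 0.73 ± 0.17 (edgeR adjusted p 0.00567). The value was 0.73 without TR11B_KO replicate 2, and the call held under all 22 alternatives. Over the 9 libraries, the tested non-member genes whose log2(CPM + 0.5) was most alike to that of AARS2 were PTPRU, PCK2 and FKBP10, with Pearson's r of 0.995, 0.995 and 0.99. PCK2, the mitochondrial phosphoenolpyruvate carboxykinase, had 44.2, 42.9 and 43.7 CPM in OGT_KO, 86.9, 97.3 and 97.0 CPM in TR11B_KO and 61.6, 63.6 and 60.7 CPM in NC. Like AARS2 it was lowest in OGT_KO and highest in TR11B_KO, with no overlap. PCK2 was picked for its likeness to AARS2 over these same libraries, so this shared order is no separate observation.

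**Figure D3:**
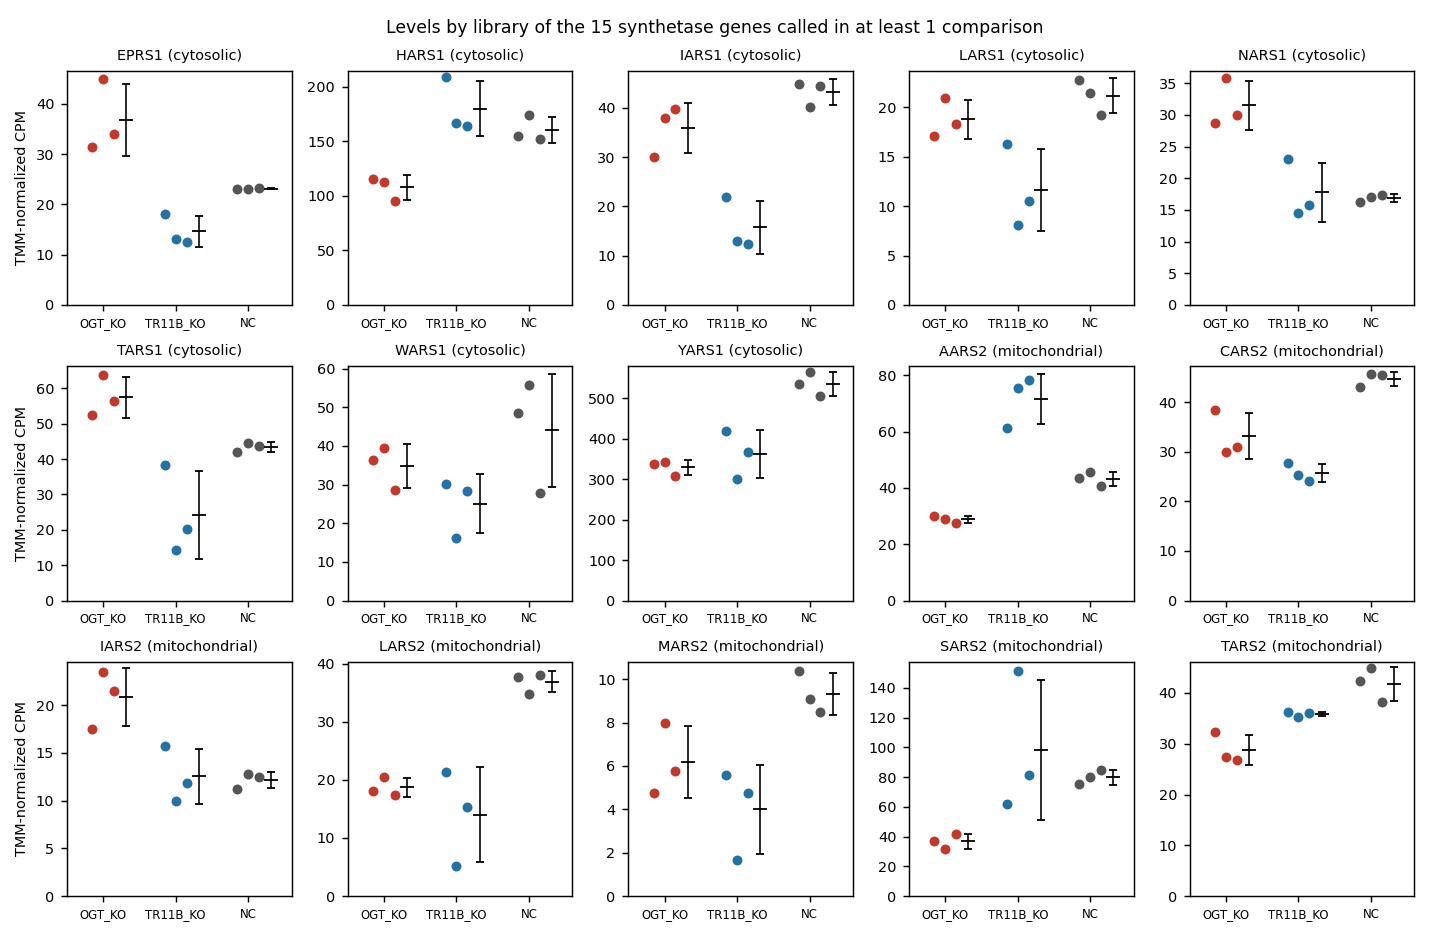
TMM-normalized CPM in each library of the 15 members called in at least 1 comparison, with the mean and SD of each group as a bar beside its 3 points; each panel starts at 0. NC replicates lie close together except for WARS1, and TR11B_KO replicate 2 is the lowest TR11B_KO point for TARS1, LARS2 and MARS2 and the highest for SARS2.

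Set directly against TR11B_KO, OGT_KO had higher levels of EPRS1, IARS1, LARS1, NARS1, TARS1 and IARS2 and lower levels of HARS1, AARS2 and SARS2. These 9 calls are 23.7% of the members, beside 33.2% of all tested genes (16.7% higher and 16.5% lower), so the share does not exceed the background. Groups were separate for 10 members upward and 5 downward, where 24.6% and 20.3% of all genes were, 44.9% in either direction. The median was 0.14 over cytosolic and -0.09 over mitochondrial genes, against 0.06 over all. Library totals alone put them at 0.39, 0.15 and 0.31. Without OGT_KO replicate 2 there were 6 calls (15.8% of the members, beside 18.7% of all genes). Without TR11B_KO replicate 2 there were 16 (42.1%, beside 41.4%).

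The widest differences were those of AARS2 and SARS2 downward and EPRS1, TARS1 and IARS1 upward, and these 5 were called under all 22 alternatives. AARS2, with the library values given above, differed by -1.32 ± 0.17 (edgeR adjusted p 7.65e-05). SARS2 had 36.9, 31.7 and 41.8 CPM in OGT_KO against 62.0, 152 and 81.4 CPM in TR11B_KO. All OGT_KO values were lower, TR11B_KO replicate 2 was far above its group, and the difference was -1.42 ± 0.27 (edgeR adjusted p 0.00136), or -0.99 without that library. EPRS1 differed by 1.33 ± 0.21 (edgeR adjusted p 0.000383), being higher than NC in OGT_KO and lower in TR11B_KO.

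TARS1 had 52.3, 63.7 and 56.3 CPM in OGT_KO, against 38.2, 14.2 and 20.2 CPM in TR11B_KO, a difference of 1.25 ± 0.28 with no overlap (edgeR adjusted p 0.00402). IARS1 had 30.0, 38.01 and 39.7 CPM in OGT_KO and 21.996, 13.0 and 12.3 CPM in TR11B_KO. Its groups were separate too, at 1.19 ± 0.23 (edgeR adjusted p 0.00163). HARS1 had 116, 113 and 95.01 CPM in OGT_KO and 209, 167 and 164 CPM in TR11B_KO, with no overlap and a difference of -0.74 ± 0.17 (edgeR adjusted p 0.00437). For HARS2, its neighbour and close copy, the OGT_KO libraries had 15.6, 20.1 and 16.7 CPM, the TR11B_KO libraries 23.9, 9.83 and 23.5 CPM, and the NC libraries 22.3, 19.6 and 17.2 CPM. These overlapped, and HARS2 was called in no comparison. How reads that fit both copies were counted is not given in the sources used here, so the split between HARS1 and HARS2 is uncertain.

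NARS1 differed by 0.82 ± 0.21 (edgeR adjusted p 0.00858), IARS2 by 0.73 ± 0.22 (0.0192) and LARS1 by 0.69 ± 0.24 (0.0406), each with no overlap between OGT_KO and TR11B_KO. NARS1 was lost without OGT_KO replicate 2 (0.0536) and IARS2 without OGT_KO replicate 2, OGT_KO replicate 3 or TR11B_KO replicate 3 (up to 0.0903). LARS1 was lost without any one library other than TR11B_KO replicates 1 and 2 (up to 0.148), and with the trend over GC content removed it was 0.35 (0.108). The 6 members higher in OGT_KO had a GC content of 41.5% to 44.3% and the 3 lower ones 46.8% to 61.2%. Spearman's rho of this difference with GC content was -0.483 over the 38 members and -0.314 over the 12166 tested genes, and with gene length 0.327 and 0.333 (12574 genes).

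The 23 members never called had log2 fold changes from -0.50 (NARS2) to 0.47 (RARS1) in OGT_KO against NC, with a lowest edgeR adjusted p of 0.091. Their range was -0.77 (GARS1) to 0.36 (SARS1) in TR11B_KO against NC, with a lowest of 0.0705, and -0.57 (YARS2) to 0.64 (GARS1) between the knockouts, with a lowest of 0.0744. The most abundant of them, VARS1, had 1733, 1536 and 1792 CPM in OGT_KO, 1017, 2497 and 1489 CPM in TR11B_KO and 1601, 1552 and 1626 CPM in NC. FARSA had 448, 361 and 484 CPM in OGT_KO, 383, 899 and 438 CPM in TR11B_KO and 558, 551 and 657 CPM in NC. In both, TR11B_KO replicate 2 was the highest of the 9 libraries. The lysine enzyme KARS1 had 174, 214 and 168 CPM in OGT_KO, 269, 96.2 and 221 CPM in TR11B_KO and 268, 288 and 193 CPM in NC, with that library the lowest of all.

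Summed over a class, the mitochondrial genes reached 466 to 498 CPM in OGT_KO, 573 to 769 in TR11B_KO and 652 to 671 in NC, on the TMM-scaled values used above. OGT_KO lay below both other groups, while TR11B_KO overlapped NC. On the FPKM scale, which carries no TMM factor, they reached 149 to 153 in OGT_KO, 169 to 187 in TR11B_KO and 191 to 200 in NC, and the 3 groups did not overlap, so TR11B_KO lay apart from NC only on the unscaled values. As a share of all counts, also without TMM factors, they held 0.0529% ± 0.000929 in OGT_KO, 0.0587% ± 0.00148 in TR11B_KO and 0.0664% ± 0.00122 in NC (SD, n = 3 each). VARS2 averaged 208, 273 and 260 CPM in OGT_KO, TR11B_KO and NC, and SARS2 36.8, 98.4 and 80.0 CPM. These 2 genes hold a large part of the mitochondrial sums, which were not repeated without them. The cytosolic genes summed to 4444 to 4671 CPM in OGT_KO, 4240 to 5694 in TR11B_KO and 4963 to 5297 in NC. OGT_KO lay below NC, and TR11B_KO overlapped both. In FPKM their ranges were 1651 to 1757 in OGT_KO, 1504 to 1564 in TR11B_KO and 1782 to 1894 in NC, without overlap and with TR11B_KO lowest. Without VARS1 and FARSA the FPKM ranges were 929 to 1111, 704 to 1114 and 1032 to 1225 in the same order, and overlapped. The sums follow the gene names, so GARS1, KARS1 and QARS1 counted only as cytosolic. KARS1 alone averaged 88.9 FPKM in OGT_KO, 80.9 in TR11B_KO and 110 in NC.

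The balance between the enzymes for one amino acid was compared per length as the FPKM ratio of the cytosolic to the mitochondrial gene, over 13 pairs. For alanine (AARS1 over AARS2) it was 25.9, 25.1 and 24.8 in OGT_KO, 9.94, 9.64 and 8.85 in TR11B_KO and 19.0, 18.4 and 16.8 in NC. The 3 groups were fully separate, with OGT_KO highest and TR11B_KO lowest. For isoleucine (IARS1 over IARS2) it was 1.25, 1.18 and 1.35 in OGT_KO, 1.02, 0.945 and 0.754 in TR11B_KO and 2.92, 2.28 and 2.597 in NC. Both knockouts lay below NC and TR11B_KO below OGT_KO.

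For asparagine (NARS1 over NARS2) the ratio was 4.94, 6.04 and 3.94 in OGT_KO, 2.42, 4.17 and 3.74 in TR11B_KO and 2.01, 1.80 and 1.75 in NC, so both knockouts lay above NC and overlapped each other. For serine (SARS1 over SARS2) it was 7.19, 7.73 and 5.66 in OGT_KO, 5.58, 2.06 and 3.70 in TR11B_KO and 3.299, 3.45 and 2.62 in NC. Only the OGT_KO values were clear of NC. Over all pairs the mean ratio in NC ran from 0.675 for leucine, where the mitochondrial gene had the higher FPKM, to 66.9 for methionine. No test was made of these ratios.

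The ATF4 route was described with lists of its genes. Among 21 genes of the amino acid response, 4 rose and 4 fell in OGT_KO (38.1%, beside 18.3% of all genes), with a median log2 fold change of -0.36 against 0.03 over all genes. In TR11B_KO 5 rose and 2 fell (33.3%, beside 27.6%), with a median of 0.04 against -0.01. ATF4 itself had values of -0.51 in OGT_KO (edgeR adjusted p 0.0838) and -0.43 in TR11B_KO (0.117). Its target ASNS, asparagine synthetase, was near the detection limit at 0.182 to 1.01 CPM in OGT_KO, 0.258 to 0.595 in TR11B_KO and 0.287 to 0.659 in NC, with values of 0.28 and -0.16 (edgeR adjusted p 0.792 and 0.871).

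PHGDH, which opens serine synthesis, had 26.4, 22.2 and 27.7 CPM in OGT_KO, 230, 383 and 258 CPM in TR11B_KO and 63.7, 60.1 and 71.6 CPM in NC. It fell in OGT_KO (-1.36, edgeR adjusted p 0.000614) and rose in TR11B_KO (2.16, 3.06e-05), with all groups separate. In OGT_KO the mitochondrial folate enzyme MTHFD2 (-1.45) and the transcription factor CEBPB (-0.78) also fell and the stress factor ATF3 rose (1.32). In TR11B_KO the mTORC1 inhibitor DDIT4 (1.24) and the secreted glycoprotein STC2 (1.08) rose and CEBPB fell (-0.96). Without TR11B_KO replicate 2 the list had 15 calls in OGT_KO (5 higher and 10 lower) and 8 in TR11B_KO (6 and 2). It had 5 in OGT_KO without OGT_KO replicate 1, NC replicate 1 or NC replicate 2, and 11 in TR11B_KO without TR11B_KO replicate 1. Of all genes, 35.4% were called in OGT_KO and 34.2% in TR11B_KO without TR11B_KO replicate 2. The all-gene shares were 9.07%, 8.34% and 9.1% in the OGT_KO fits with 5 calls, and 34.8% in the TR11B_KO fit with 11.

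**Figure D4:**
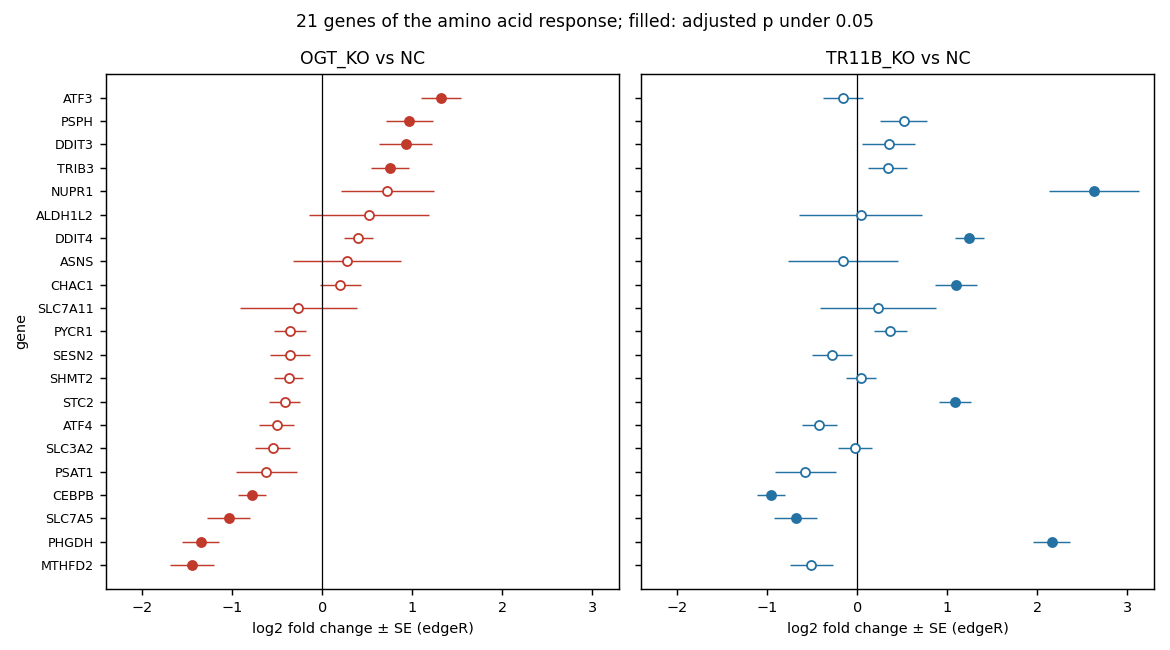
Log2 fold change ± SE (edgeR) of 21 genes of the amino acid response for OGT_KO against NC (left) and TR11B_KO against NC (right), sorted by the OGT_KO value; filled circles have an adjusted p under 0.05. PHGDH lies near -1.36 on the left and near 2.16 on the right, while ATF4 and ASNS are open on both sides.

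Of 13 synthetase members known as ATF4-responsive, 2 rose and 1 fell in OGT_KO (23.1%, beside 18.3%), and none rose and 6 fell in TR11B_KO (46.2%, beside 27.6%), where their median was -0.64. In the direct comparison 5 were higher and none lower in OGT_KO (38.5%, beside 33.2%). At an unadjusted p under 0.05 the zeros became 1 and 1, and DESeq2 called 1 and 1. The 6 were 1 without TR11B_KO replicate 3, NC replicate 1 or NC replicate 2 (21.2%, 14.5% and 14.1% of all genes called). They were 7 (1 higher and 6 lower) without TR11B_KO replicate 2 (34.2% of all genes). The 3 calls in OGT_KO were 1 without OGT_KO replicate 2 or 3 or NC replicate 1 or 2 (9.12%, 9.74%, 8.34% and 9.1% of all genes). They were 6 without TR11B_KO replicate 2 (35.4% of all genes). The 5 of the direct comparison were 3 without OGT_KO replicate 2 (18.7% of all genes) and 8 without TR11B_KO replicate 2 (41.4%). The 7 cytosolic genes with TGATGNAA printed above had a TR11B_KO median of -0.64 with 2 of 7 called lower (IARS1 and TARS1). The 12 cytosolic genes with a promoter window but no match had a median of -0.06 with 2 of 12 called lower. These shares are 28.6% and 16.7%, beside 14.3% of all genes called lower and 27.6% called in either direction. The median over all genes was -0.01. LARS1, YARS1 and VARS1 had no window and are in neither group. Their TR11B_KO values were -0.86 and -0.56, both called lower, and 0.07. In OGT_KO the medians of the genes with and without a match were -0.13 and -0.10, against 0.03 over all genes. ATF4-responsive and TGATGNAA members overlap as lists, and no test was made of either.

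Genes around the synthetases were described in the same way. Of 40 genes for tRNA synthesis and maturation, none rose and 6 fell in OGT_KO (15%, beside 18.3%), and 2 rose and 12 fell in TR11B_KO (35%, beside 27.6%). At an unadjusted p under 0.05, 2 were higher in OGT_KO, and DESeq2 called 1 higher. The medians of the list were -0.27 and -0.21. POLR3A, the large subunit of RNA polymerase III, had 25.5, 27.1 and 23.2 CPM in OGT_KO, 19.4, 11.6 and 18.4 CPM in TR11B_KO and 49.4, 54.0 and 42.1 CPM in NC. Both knockouts lay below NC, at -0.94 (edgeR adjusted p 0.0079) in OGT_KO and -1.55 (0.00034) in TR11B_KO. ELAC2, which trims tRNA 3' ends, fell by 0.91 in OGT_KO (0.00154) and by 0.96 in TR11B_KO (0.000926). Also lower in OGT_KO were the tRNA ligase RTCB (-0.68) and the TFIIIC subunit GTF3C3 (-0.89), and in TR11B_KO the TFIIIC subunits GTF3C1 (-0.96) and GTF3C2 (-0.78). Without TR11B_KO replicate 2 the tRNA list had 16 calls in OGT_KO (2 higher and 14 lower) and 10 in TR11B_KO (1 and 9), beside 35.4% and 34.2% of all genes. The OGT_KO calls were 3 without OGT_KO replicate 1 (9.07% of all genes). They were 2 without OGT_KO replicate 3, NC replicate 1 or NC replicate 2 (9.74%, 8.34% and 9.1% of all genes). The TR11B_KO calls were 6 without NC replicate 1 or 2 (14.5% and 14.1% of all genes) and 8 without NC replicate 3 (21.1%).

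Of 8 genes for eIF2alpha kinases and phosphatases, GCN1, the GCN2 activator, and PPP1R15A, a phosphatase subunit, fell in OGT_KO (-0.79 and -0.52; 25%, beside 18.3% of all genes). In TR11B_KO GCN1 (-0.65) and the kinase gene EIF2AK4 (-0.82) fell and the eIF2alpha gene EIF2S1 rose (0.99; 37.5%, beside 27.6%). Of 8 elongation genes, EEF1A1 rose in both knockouts (1.03 and 1.26), EEF1A2 rose in OGT_KO (0.91), EEF1B2 rose in TR11B_KO (0.82), and EEF1D (-0.75) and the EEF2 kinase gene EEF2K (-1.04) fell in OGT_KO. These calls are 50% of that list in OGT_KO and 25% in TR11B_KO, beside 18.3% and 27.6% of all genes. Of 13 mitochondrial translation factors edgeR called none in OGT_KO (3 lower at an unadjusted p under 0.05, 1 lower with DESeq2), and in TR11B_KO GATC, a subunit of the glutamyl-tRNA amidotransferase, rose (0.76; 7.69%, beside 27.6%). TUFM, the mitochondrial elongation factor Tu, had values of 0.10 and 0.48 (edgeR adjusted p 0.777 and 0.0806). Of 6 tested genes for editing and selenocysteine loading edgeR called none in either knockout, with 1 higher in OGT_KO and 0 in TR11B_KO at an unadjusted p under 0.05 and by DESeq2.

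Interferon-gamma response genes were listed because WARS1 is one of that pathway's targets. SOCS1, a feedback inhibitor of cytokine signalling, fell in OGT_KO (-1.09). The immunoproteasome genes PSMB8 (0.64) and PSMB9 (0.92) rose in TR11B_KO, while the peptide transporter TAP1 (-0.66) and IRF1 (-0.60) fell.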

How the data were processed

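Total RNA of 9 samples labelled A549 was sequenced after TRIzol extraction and library preparation with the VAHTS Universal V6 kit, per the labels' protocols. Per the submitters' processing notes the authors used fastp, HISAT and HTSeq, with DESeq2 and R 3.2.0, on GRCh38; roles, settings and strand were not given. The authors deposited a table of raw read counts per gene and a table of FPKM values for the same genes.

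Counts were tested with edgeR 4.0.16 in R 4.3.3: filterByExpr, TMM factors and the robust quasi-likelihood F test on all 9 libraries with 1 mean per group, adjusted by Benjamini-Hochberg over 12574 genes and called at an adjusted p under 0.05. Standard errors (SE) are the size of the log2 fold change over the square root of F. Replicates differed by far more than sampling noise (chi-square per degree of freedom 9.54 to 310), so no library was a copy. Alternatives used DESeq2 1.42.0, other scalings, filters and fits, limma 3.58.1 on log2(FPKM + 1) or with 0.1 added, and offsets for length and GC content. The script was tested on simulated data. Gene length came from count over FPKM, and GC content from the longest GENCODE transcript.

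The members and lists were chosen with earlier results of these data known. Named members are those called in any comparison, and from the other lists up to 4 called genes with the smallest adjusted p, plus ATF4, ASNS and TUFM; not all are named, and 1 gene is not reported here.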

Additional observations from a re-analysis of the deposited data

How the results depend on the processing

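Of the 27 calls of a member in a comparison, 9 were kept under all 22 alternatives and 18 were lost under at least 1. The 9 were IARS1, CARS2, LARS2 and AARS2 in TR11B_KO against NC, and EPRS1, IARS1, TARS1, AARS2 and SARS2 in OGT_KO against TR11B_KO. No called value changed sign under any alternative. In OGT_KO against NC every one of the 8 calls was lost under at least 1.

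For OGT_KO against NC, 8 members were called. Library totals alone gave 5 (13.2% of the members, beside 18% of all genes). A fit of only the 2 groups compared gave 22 (57.9%, beside 41.8%). Limma on log2(FPKM + 1) gave 4 (10.5%, beside 20.2%), limma with 0.1 added 3 (7.89%, beside 18.6%) and limma with no filter 2 (5.26%, beside 11.1%). DESeq2 gave 10 (26.3%, beside 23.6%), RLE size factors 9 (23.7%, beside 18.2%), and the GC offset 9 (23.7%, beside 26%). Leaving out single libraries gave 1 without OGT_KO replicate 2 (2.63%, beside 9.12%) to 20 without TR11B_KO replicate 2 (52.6%, beside 35.4%). For TR11B_KO against NC, 10 were called. The fit of only the 2 groups gave 5 (13.2%, beside 18.7%) and limma with no filter 5 (13.2%, beside 14.1%). The length offset gave 8 (21.1%, beside 22.2%) and lost EPRS1 and WARS1 (edgeR adjusted p 0.103 and 0.0514). Single libraries left out gave 4 without NC replicate 1 or 2 (10.5%, beside 14.5% and 14.1%) to 14 without TR11B_KO replicate 1 (36.8%, beside 34.8%). For OGT_KO against TR11B_KO, 9 were called, and 14 with the GC offset (36.8%, beside 38.9%). Single libraries left out gave 6 without OGT_KO replicate 2 (15.8%, beside 18.7%) to 16 without TR11B_KO replicate 2 (42.1%, beside 41.4%). The GC offset, and the GC and length offsets together, were chosen after seeing the data. The cause of these shifts was not tested.

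With the replicate number as a block the counts were 3, 7 and 8 for the 3 comparisons, against 8, 10 and 9. These are 7.89%, 18.4% and 21.1% of the members, beside 12.8%, 20.8% and 27.1% of all genes. The deviations of same-numbered libraries from their group means correlated at -0.03, 0.156 and 0.147 between OGT_KO and NC. They correlated at -0.328 to 0.0324 between TR11B_KO and NC, and at -0.339 to -0.0627 between the knockouts. These low or negative values do not show a pairing by number, but with 3 libraries per group they cannot exclude one.

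Among values not called, IARS2, NARS1 and SARS2 in TR11B_KO against NC, and YARS1 in OGT_KO against TR11B_KO, changed sign under 6, 5, 2 and 5 alternatives, with lowest values of -0.13, -0.11 and -0.12 for the first 3 and 0.04 to 0.14 for YARS1.

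The smallest change called among the members was -0.54 on the log2 scale (TARS2 in OGT_KO against NC), and AIMP1, EEF1E1 and WARS2 lay near the detection limit at under 3 CPM in every library.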
